A study of Rattus norvegicus with 6 samples.

Results

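This account covers 9 genes of renal glucose handling in rat renal cortex, chosen by name from their roles, with earlier results of these data known. They are the sodium-glucose cotransporters Slc5a1 (SGLT1) and Slc5a2 (SGLT2), the facilitative carriers Slc2a1 (GLUT1) and Slc2a2 (GLUT2), the gluconeogenic enzymes Pck2, Pcx, Fbp1 and G6pc1, and the fructose kinase Khk. All 9 were found on the array, by 20 probes, and all 9 entered the test of 31179 genes. Each of the 20 probes was well above background on all 6 arrays. Male Sprague-Dawley rats, 5 weeks old at purchase, were dosed for 4 weeks with corn oil (vehicle, 3 rats) or with benzyl acetate at 1000 mg/kg/day (3 rats), an ester used as a fragrance and flavouring. All rats had the basal diet and tap water. Cortex RNA of each rat was labelled with Cy3 and hybridised to 1 Agilent expression array.

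The proximal tubule takes glucose back from the filtrate by sodium-coupled uptake at its brush border and passive exit at its basolateral side. SGLT2, in the early tubule, carries most of the load with low affinity, and SGLT1, in the late straight part, collects what remains with high affinity. GLUT2 is the exit carrier of the early tubule and GLUT1 that of later segments. The same cells make glucose from lactate, glutamine and glycerol, and take up and phosphorylate fructose.

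Signals are given as log2 of the processed signal minus the 75th percentile of that array, so 0 is the level below which 75% of the array's probes lie. The scale is relative within an array, so a shift of most transcripts together is invisible on it. The 75th percentile was 1003 to 1057 signal units on the vehicle arrays and 883 to 990 on the benzyl acetate arrays. Probes well above background made up 70.5% to 72.0% on the vehicle arrays and 69.0% to 69.8% on the benzyl acetate arrays. Neither measure overlapped between groups, and the cause was not tested. A small scaled difference can have the other sign before scaling, as for Pck2 and Fbp1 below. Benzyl acetate replicate 3 had the lowest 75th percentile. Slide 1 held only vehicle replicate 1, and slide 2 held the remaining 5 arrays, so slide and animal cannot be told apart there. All 8 early and all 7 late proximal tubule markers were well above background on every array. Fewer cells of a type and less RNA per cell cannot be told apart in these bulk samples.

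None of the 9 genes was called higher or lower. The same held for all genes tested, so this count says nothing particular to them. Limma called 0 of the 9 at an adjusted p under 0.05, against 0% of all genes tested (0 of 31179), and the members' adjusted p-values were 0.826 to 0.997. At an unadjusted p under 0.05 limma gave 0 of 9 members, against 6.74% of all genes. The groups overlapped for every member, while they did not overlap for 12.8% of all genes. The log2 differences, benzyl acetate minus vehicle, ran from -0.15 (Slc5a1) to 0.16 (G6pc1), 4 above 0 and 5 below, with a median of -0.007 against 0.012 for all genes. Each of the 9 intervals of 95% lay inside a 1.5-fold difference either way, as did 73.9% of intervals over all genes, and the widest reached 1.45-fold (Slc5a1).

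**Figure D1:**
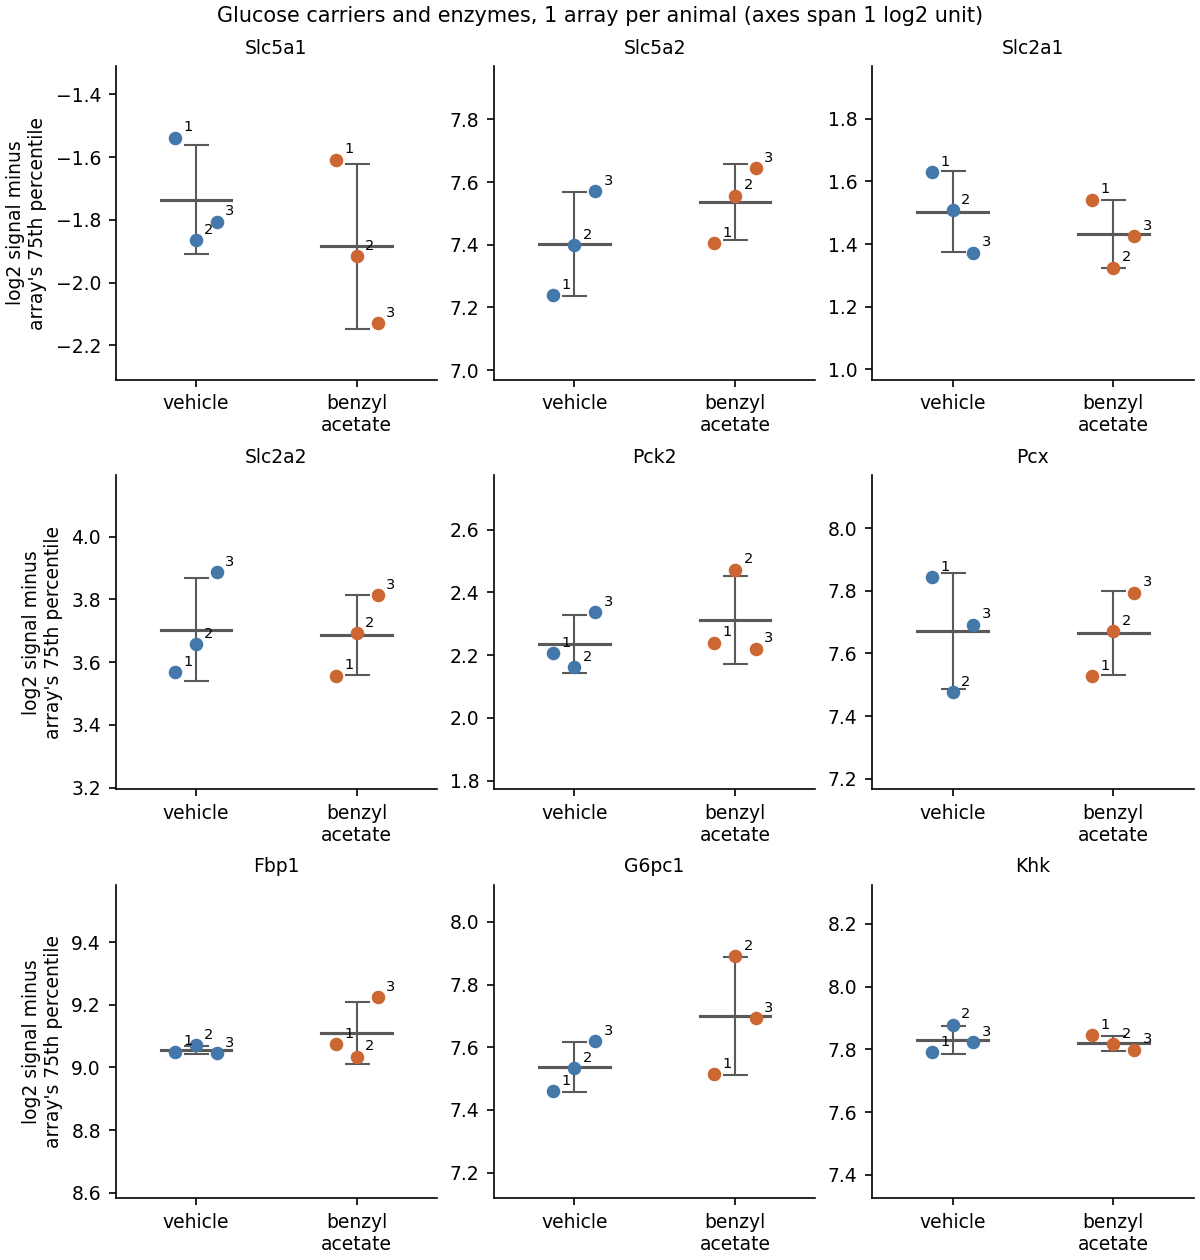
Log2 signal minus the array's 75th percentile for the 9 genes, from the probe of highest mean signal. Each point is 1 animal with its replicate number, long bars are group means and whiskers are SDs over 3 animals. The points of the groups overlap in every panel, and Khk has the narrowest spread by this probe, 0.088 log2 over the 6 arrays.

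The 5′ regions of both cotransporters are shown because the comparison of SGLT2 with SGLT1 rests on these 2 genes. RefSeq start-site windows of GRCr8, from 250 bases before the start site to 50 after it, were matched for 8 of the 9 genes, all but Pcx. Motifs were searched on both strands: the E-box CACGTG and the cyclic AMP element TGACGTCA, which do not overlap here. Capitals mark a match.
Slc5a1, chr14:81843035-81843334, minus strand: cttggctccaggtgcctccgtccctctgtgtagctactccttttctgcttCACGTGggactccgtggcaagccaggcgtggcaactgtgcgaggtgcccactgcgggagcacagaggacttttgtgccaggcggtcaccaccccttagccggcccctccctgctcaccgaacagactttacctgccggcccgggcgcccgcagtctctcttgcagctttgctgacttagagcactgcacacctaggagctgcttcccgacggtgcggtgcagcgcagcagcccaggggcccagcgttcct
Slc5a2, chr1:192277371-192277670, plus strand: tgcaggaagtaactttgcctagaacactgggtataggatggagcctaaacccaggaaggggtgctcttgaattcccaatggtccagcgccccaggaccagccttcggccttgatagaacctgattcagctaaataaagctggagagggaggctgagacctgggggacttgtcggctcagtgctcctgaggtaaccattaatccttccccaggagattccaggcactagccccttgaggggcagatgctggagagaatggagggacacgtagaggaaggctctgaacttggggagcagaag
Slc5a1 held the E-box letters, beginning 200 bases before the start site, and Slc5a2 held neither motif. No other match to these letters was found in the 8 windows. Of all 33469 windows of that length, 6.42% held CACGTG and 1.83% TGACGTCA. A match is a description of letters, and the arrays measured no binding.

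Slc5a2 gave a strong signal. Its brightest probe stood at 7.24, 7.40 and 7.57 log2 on vehicle replicates 1, 2 and 3 and at 7.40, 7.56 and 7.64 on benzyl acetate replicates 1, 2 and 3. Vehicle replicate 1 was lowest and benzyl acetate replicate 3 highest, and the groups overlapped. This log2 signal averaged 7.40 ± 0.17 in the vehicle group and 7.54 ± 0.12 in the treated group (SD, n = 3 each). The difference was 0.13 log2 (95% interval -0.15 to 0.41), or 1.10-fold, and it missed the threshold in limma (adjusted p = 0.851). It was 0.05 without vehicle replicate 1, 0.077 without benzyl acetate replicate 3, 0.20 without benzyl acetate replicate 1 and 0.22 without vehicle replicate 3. The other probes of Slc5a2 gave differences of 0.086 and 0.034 log2. Before scaling, the processed signal of the brightest probe averaged 176860 units with benzyl acetate and 176600 with vehicle, so the difference appears on the scaled values only.

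Slc5a1 gave a weak but detected signal. On vehicle replicates 1, 2 and 3 its brighter probe read -1.54, -1.86 and -1.81 log2, and on benzyl acetate replicates 1, 2 and 3 it read -1.61, -1.92 and -2.13. Benzyl acetate replicate 3 was lowest, at 202 processed signal units, where the dimmest probe well above background on that array read 15.3. Its log2 signal averaged -1.74 ± 0.17 in the vehicle group and -1.88 ± 0.26 in the treated group (SD, n = 3 each). The difference of -0.15 log2 (-0.54 to 0.24), a vehicle signal 1.11-fold that with benzyl acetate, did not pass in limma (adjusted p = 0.884). Its dimmer probe followed the same order of arrays within 0.11 log2 and gave -0.23. Without benzyl acetate replicate 3 the difference of the brighter probe was -0.026 log2, and without vehicle replicate 1 it was -0.05. It was -0.29 without benzyl acetate replicate 1.

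The signals of SGLT2 and SGLT1 come from different probes and do not give a ratio of transcripts. The 3 probes of Slc2a2 show how far probes of 1 gene can stand apart on the same arrays, with vehicle means of 3.70, 1.97 and -1.96 log2. For the same reason the members are not ranked by abundance here. Side by side, the vehicle means of the 3 Slc5a2 probes were 7.40, 7.34 and 6.59 log2, and those of the 2 Slc5a1 probes -1.74 and -2.30.

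The difference between both cotransporters within an array is free of the probes' own strength when groups are compared. Slc5a2 minus Slc5a1 was 8.78, 9.26 and 9.38 log2 on vehicle replicates 1, 2 and 3, and 9.01, 9.47 and 9.77 on benzyl acetate replicates 1, 2 and 3. Treated arrays held the highest value, but benzyl acetate replicate 1 lay below vehicle replicates 2 and 3. It averaged 9.14 ± 0.32 in the vehicle group and 9.42 ± 0.38 in the treated group (SD, n = 3 each), 0.28 log2 apart. An exact two-sided permutation test gave p = 0.4, or 0.6 adjusted over the 3 within-array differences computed, where 0.1 is the smallest p that 3 against 3 arrays allow. The gap was 0.10 log2 without benzyl acetate replicate 3 and 0.099 without vehicle replicate 1, that is, within slide 2. It was 0.48 without benzyl acetate replicate 1 and 0.40 without vehicle replicate 3. Over the 6 combinations of an Slc5a2 probe with an Slc5a1 probe it ran from 0.18 to 0.36 log2.

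**Figure D2:**
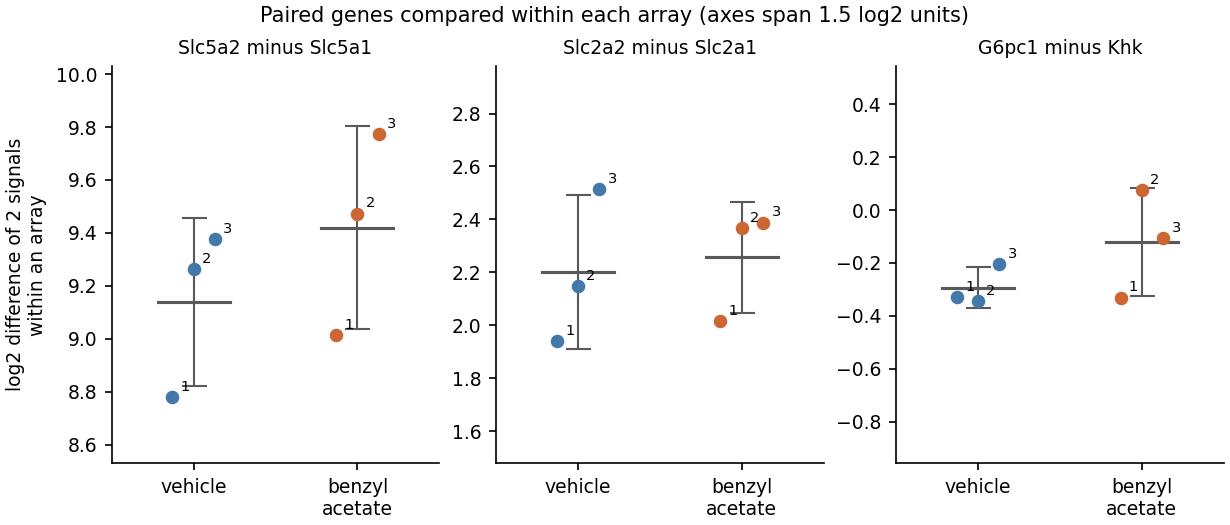
Log2 difference of signals of 2 genes within each array, for the sodium-coupled carriers, the facilitative carriers, and a glucose-releasing and a fructose enzyme. Points are animals with replicate numbers, long bars are means and whiskers SDs over 3 animals. For Slc5a2 minus Slc5a1 the benzyl acetate mean of 9.42 lies above the vehicle mean of 9.14, with points that interleave.

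Markers of the late proximal tubule, where SGLT1 is found, varied between arrays in both groups. Their summed linear signal, in multiples of the array's 75th percentile, was 543, 616 and 458 on vehicle replicates 1, 2 and 3 and 534, 506 and 425 on benzyl acetate replicates 1, 2 and 3. It was lowest on benzyl acetate replicate 3, as was Slc5a1, but on the vehicle arrays it was highest on replicate 2, where Slc5a1 was lowest. The 8 early markers summed to 637 to 664 with vehicle and to 642 to 713 with benzyl acetate. Thick ascending limb markers (4 genes) summed to 238 to 422 with vehicle and 301 to 324 with benzyl acetate, and distal and collecting duct markers (5 genes) to 164 to 169.6 and 134 to 166. Glomerulus markers (4 genes) summed to 28.2 to 34.8 and 29.9 to 38.1. Of the marker lists, only the sums of the 4 endothelium markers did not overlap between groups. They were 28.4 to 31.6 with vehicle and 33.25 to 35.7 with benzyl acetate. Among all single genes the groups did not overlap for 12.8%, and no marker sum was tested. Red blood cell markers (4 genes) summed to 579.5 to 661 with vehicle and 602 to 695 with benzyl acetate. Sums of different lists come from different probes and do not give ratios of cell types. The part of this cell makeup in the members' signals was not tested. Marker lists of macrophages (4 genes, 3.03 to 3.96 with vehicle and 2.605 to 3.24 with benzyl acetate), liver (4 genes, 1.396 to 3.56 and 0.841 to 6.26), T cells (4 genes, 1.07 to 2.96 and 0.885 to 1.11) and fat (3 genes, 0.755 to 1.38 and 0.994 to 1.49) gave small sums, and Cd163 and Lep were not well above background on any array.

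By a rule of closest profile over the 6 arrays, with each gene centred on its mean, the tested genes most like Slc5a1 were Dram1, Tmem184b and Pprc1. Their largest deviations from it on any array were 0.086, 0.096 and 0.12 log2, among 12269 genes with a symbol. Those most like Slc5a2 were Tdp1, Rhobtb1 and Mcrip2, within 0.041, 0.045 and 0.052 log2. As many as 82 genes lay within 0.1 log2 of Slc5a2 on every array, against 2 for Slc5a1. That limit is fixed, while the SD within groups was 0.145 log2 for Slc5a2 and 0.22 for Slc5a1. The counts therefore do not compare how distinctive the profiles are.

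The facilitative carriers also stayed within the spread between animals. Slc2a2 stood at 3.57, 3.66 and 3.89 log2 on vehicle replicates 1, 2 and 3 and at 3.56, 3.69 and 3.81 on benzyl acetate replicates 1, 2 and 3. Values of the groups interleaved. The log2 difference was -0.017 (-0.30 to 0.26), with an adjusted p of 0.991 in limma, and the other probes gave -0.049 and 0.028, so its sign depends on the probe.

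Slc2a1, the widely expressed GLUT1, had 1 probe. It read 1.63, 1.51 and 1.37 log2 on vehicle replicates 1, 2 and 3, and 1.54, 1.32 and 1.43 on benzyl acetate replicates 1, 2 and 3. The highest value was a vehicle array and the lowest a treated one. The difference of -0.073 log2 (-0.31 to 0.17) did not pass in limma (adjusted p = 0.911), and it ran from -0.14 to -0.0097 with each array left out in turn. Slc2a2 minus Slc2a1 within an array averaged 2.20 ± 0.29 in the vehicle group and 2.26 ± 0.21 in the treated group (SD, n = 3 each), 0.056 log2 apart (exact two-sided permutation p = 0.9, adjusted 0.9). That gap was -0.074 with vehicle replicate 1 left out and -0.0093 with benzyl acetate replicate 3 left out.

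The glucose-producing enzymes are described in the order of the route. Pcx, pyruvate carboxylase, makes oxaloacetate in mitochondria. Its log2 signal was 7.84, 7.48 and 7.69 on vehicle replicates 1, 2 and 3 and 7.53, 7.67 and 7.79 on benzyl acetate replicates 1, 2 and 3. Both the highest and the lowest array were vehicle. The log2 difference was -0.007 (-0.31 to 0.29), adjusted p = 0.997 in limma, with -0.10 from its dimmer probe. Its sign turned when vehicle replicate 1 (0.080), vehicle replicate 3 (0.0033) or benzyl acetate replicate 1 (0.061) was left out.

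Pck2, the mitochondrial phosphoenolpyruvate carboxykinase, turns oxaloacetate into phosphoenolpyruvate. It stood at 2.21, 2.16 and 2.34 log2 on vehicle replicates 1, 2 and 3 and at 2.24, 2.47 and 2.22 on benzyl acetate replicates 1, 2 and 3. Benzyl acetate replicate 2 was highest, and the rest lay together. The log2 difference was 0.076 (-0.16 to 0.32), adjusted p = 0.905 in limma, and it was -0.0048 without benzyl acetate replicate 2. All 3 probes gave positive differences, 0.051 to 0.076 log2, on the scaled values only. Before scaling, each of these probes averaged lower with benzyl acetate, the brightest at 4762 units against 4889 with vehicle. Pck1, the cytosolic form, differed by 0.12 log2 (-0.12 to 0.37, adjusted p = 0.847 in limma), and by 0.051 without vehicle replicate 1.

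Fbp1, fructose bisphosphatase, opposes phosphofructokinase. Its log2 signal was 9.05, 9.07 and 9.04 on vehicle replicates 1, 2 and 3 and 9.08, 9.03 and 9.22 on benzyl acetate replicates 1, 2 and 3. On the scaled values the vehicle arrays were nearly level and benzyl acetate replicate 3 stood above them. Before scaling, that array read 527960 units, below each vehicle array. The unscaled signal averaged 526840 units with benzyl acetate and 551460 with vehicle, so the positive difference appears on the scaled values only. The difference was 0.056 log2 (-0.13 to 0.24), adjusted p = 0.909 in limma. It was -0.00044 without benzyl acetate replicate 3, -0.024 with quantile normalization and -0.044 from the dimmer probe.

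G6pc1, the catalytic subunit of glucose 6-phosphatase, releases free glucose. It stood at 7.46, 7.53 and 7.62 log2 on vehicle replicates 1, 2 and 3 and at 7.51, 7.89 and 7.69 on benzyl acetate replicates 1, 2 and 3. Benzyl acetate replicates 2 and 3 were above all vehicle arrays and replicate 1 lay among them. The log2 difference of 0.16 (-0.11 to 0.44), or 1.12-fold, was the highest of the 9 and did not pass in limma (adjusted p = 0.826). The dimmer probe gave 0.12 log2, and without benzyl acetate replicate 2 the difference was 0.066, and without benzyl acetate replicate 1 it was 0.25. Slc37a4, which carries glucose phosphate to that enzyme, differed by 0.28 log2 (-0.062 to 0.62, adjusted p = 0.766 in limma), and by 0.14 without vehicle replicate 1. Those values are from its brighter probe. Its dimmer probe gave 0.20 log2 without overlap of the groups, which held for 12.8% of all genes.

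**Figure D3:**
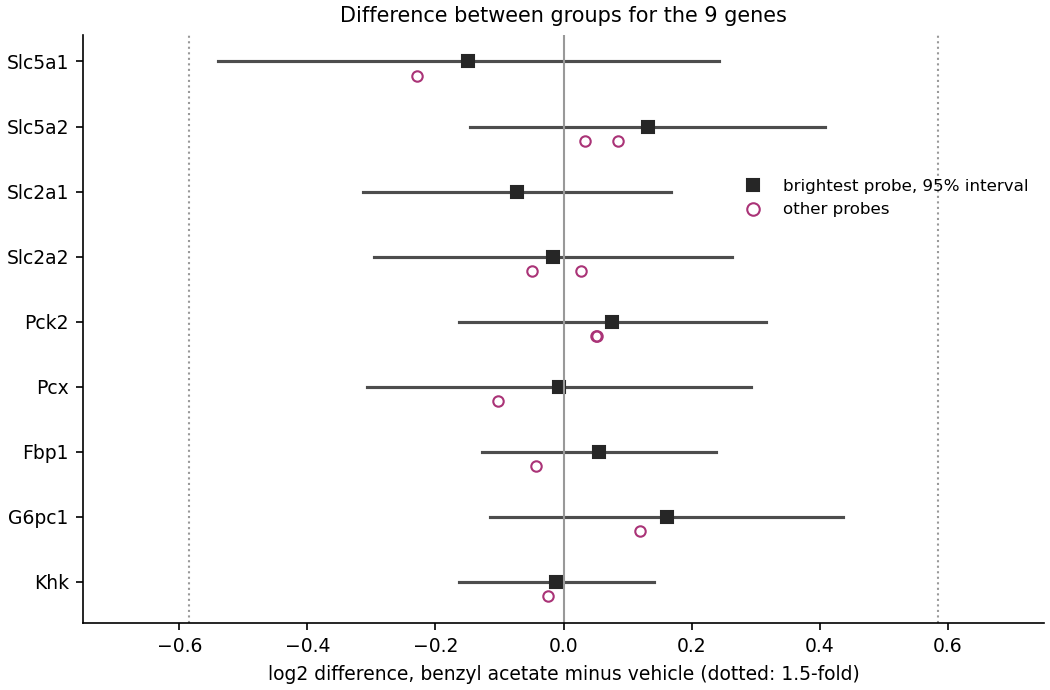
Log2 difference, benzyl acetate minus vehicle, for each of the 9 genes. Squares are the probe of highest mean signal with its 95% interval from limma, open circles are the gene's other probes, and dotted lines mark 1.5-fold. Every interval includes 0 and stays inside the dotted lines, the widest being that of Slc5a1 (-0.54 to 0.24).

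Khk, ketohexokinase, starts fructose breakdown by phosphorylating fructose. By its brighter probe it was the steadiest of the 9, at 7.79, 7.88 and 7.82 log2 on vehicle replicates 1, 2 and 3 and 7.85, 7.82 and 7.80 on benzyl acetate replicates 1, 2 and 3. Only 2.46% of all genes had a smaller SD within groups than its 0.036 log2, where the median gene had 0.14. The difference was -0.011 log2 (-0.16 to 0.14), adjusted p = 0.987 in limma, and -0.024 from the dimmer probe. That probe was less even, over a range of 0.21 log2, wider than either Fbp1 probe (0.19 and 0.15). The interval of the brighter probe reached at most 1.12-fold to either side. For Slc5a1, by contrast, the SD within groups was 0.22 log2, larger than that of 72% of genes.

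G6pc1 minus Khk within an array set glucose release beside fructose entry. It was -0.33, -0.34 and -0.20 log2 on vehicle replicates 1, 2 and 3 and -0.33, 0.075 and -0.11 on benzyl acetate replicates 1, 2 and 3. Benzyl acetate replicates 2 and 3 were above every vehicle array, and replicate 1 was not. It averaged -0.29 ± 0.077 in the vehicle group and -0.12 ± 0.20 in the treated group (SD, n = 3 each), 0.17 log2 apart. An exact two-sided permutation test gave p = 0.3 (0.6 adjusted over the 3 differences). All 4 combinations of probes gave a positive gap, from 0.13 to 0.19 log2. It was 0.075 without benzyl acetate replicate 2 and 0.28 without benzyl acetate replicate 1.

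Around Khk, the fructose carriers were less even between animals. Slc2a5 (GLUT5), the fructose carrier, stood at 1.58, 1.89 and 1.68 log2 on vehicle replicates 1, 2 and 3 and at 1.69, 0.75 and 0.12 on benzyl acetate replicates 1, 2 and 3. Benzyl acetate replicates 2 and 3 lay below all vehicle arrays, and replicate 1 lay among them. Its second probe repeated this, at 1.52, 1.91 and 1.67 and at 1.68, 0.81 and 0.035. The difference of -0.87 log2 (-1.81 to 0.078) did not pass in limma (adjusted p = 0.751). It was -0.50 without benzyl acetate replicate 3 and -1.28 without benzyl acetate replicate 1.

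Slc5a10 (SGLT5), a sodium-coupled carrier of mannose and fructose, read 2.96, 3.45 and 2.62 log2 on vehicle replicates 1, 2 and 3 and 2.93, 3.06 and 1.53 on benzyl acetate replicates 1, 2 and 3. Benzyl acetate replicate 3 alone was low. The log2 difference of -0.50 (-1.61 to 0.60, adjusted p = 0.857 in limma) became -0.015 without that array. Tkfc, which phosphorylates the glyceraldehyde formed in fructose breakdown, differed by -0.083 log2 (-0.30 to 0.13, adjusted p = 0.883 in limma), and by -0.0065 without benzyl acetate replicate 3.

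**Figure D4:**
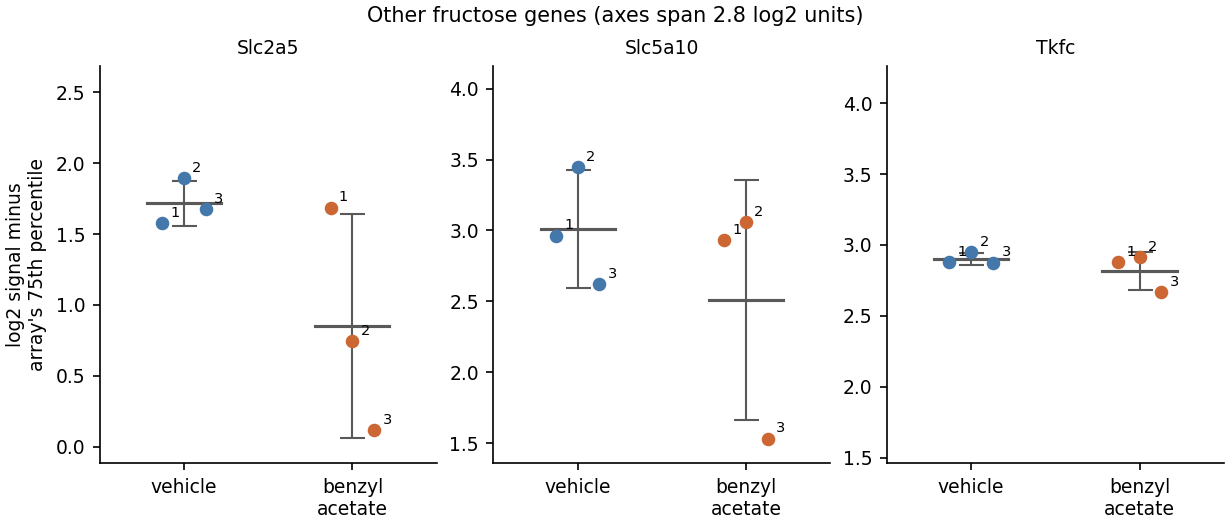
Log2 signal minus the array's 75th percentile for 3 other fructose genes. Points are animals with replicate numbers, long bars are means and whiskers SDs over 3 animals. Slc2a5 is low on benzyl acetate replicates 2 (0.75) and 3 (0.12) and Slc5a10 on benzyl acetate replicate 3 (1.53), while Tkfc stays between 2.67 and 2.95.

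The rest of the pathway was read from 6 lists of 81 genes, of which 76 were tested. None passed in either direction in limma, with adjusted p-values of 0.700 to 0.998. At an unadjusted p under 0.05 limma gave 4 of the 76 (5.26%, against 6.74% of all genes). The groups did not overlap for 10 of the 76 (13.2%, against 12.8%). Differences were above 0 for 40 genes and below 0 for 36, with a median of 0.006 log2.

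Among other hexose carriers 13 genes were tested, with a median log2 difference of 0.037, 7 above 0 and 6 below. Pdzk1ip1 (MAP17), the small membrane partner that SGLT2 needs for full activity, differed by 0.16 log2 (-0.066 to 0.38, adjusted p = 0.79 in limma), and by 0.10 without benzyl acetate replicate 2. Slc5a11, a sodium-coupled inositol carrier, differed by 0.22 (-0.091 to 0.53), and by 0.099 without vehicle replicate 1. Other gluconeogenic genes had a median of 0.006 over 16 tested, 9 above 0. The mitochondrial pyruvate carrier subunits Mpc1 and Mpc2 differed by 0.12 (-0.12 to 0.37) and 0.051 (-0.094 to 0.20), Mpc1 by 0.057 without benzyl acetate replicate 3.

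The 8 steps shared by glycolysis and gluconeogenesis had a median log2 difference of 0.012. Eno1, an enolase, differed by -0.14 (-0.49 to 0.20), by -0.039 without benzyl acetate replicate 3 and by -0.25 without vehicle replicate 1. Those values are from its brightest probe. Its other probes gave -0.19 and -0.24, each without overlap of the groups, which held for 12.8% of all genes. Gapdh differed by 0.094 (-0.067 to 0.25). One-way glycolytic steps and their switches had a median of -0.094 over 17 tested, with 11 below 0 and 6 above. The brightest were the pyruvate dehydrogenase kinase Pdk2 (0.054), and the phosphofructokinases Pfkm (0.15, -0.011 to 0.30) and Pfkp (-0.094, or -0.031 without benzyl acetate replicate 3). The list of other fructose and polyol genes had a median of 0.061 over 9 tested, with Glyctk, a glycerate kinase, at 0.16 (-0.039 to 0.37) and the aldehyde reductase Akr1a1 at -0.022. Slc2a5 counts in 2 lists.

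Regulators had a median log2 difference of 0.016 over 15 tested, 9 above 0. Hnf4a, a transcription factor of the proximal tubule, differed by 0.016 (-0.30 to 0.33) from its brightest probe. Its other probes gave 0.27, 0.23 and 0.082. The kinase Sgk1 (0.18, -0.75 to 1.11) and Cebpb (0.051, -0.62 to 0.72), a factor that acts on gluconeogenic genes, had wide intervals.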

How the data were processed

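Renal cortex RNA of 6 rats, 3 per group as biological replicates per the series' design text, was measured on 1-colour arrays. The authors deposited linear intensity values for each spot, made with Agilent Feature Extraction 10.7 according to the submitters' processing notes. Their background was subtracted and arrays were not scaled to each other, per the file headers. Other columns deposited by the authors were 0 or 1 spot flags, per the file headers. The deposited value table of intensity values was found by comparison to be the processed signal divided by its 75th percentile, within an SD of 0.0059 log2. Medians of its columns lay at 0.110, 0.111 and 0.111 (vehicle) and at 0.115, 0.112 and 0.113 (benzyl acetate), so genes were not centred.

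Processed signals were put on a log2 scale, and the 75th percentile of each array's 61537 non-control probes was subtracted. Outlier-flagged spots (37) were left out, and no spot was saturated. The filter on dim probes kept the 42355 that were well above background in all 3 animals of either group. Accessions were matched without version to RefSeq symbols (GRCr8), which named 28206 probes with 15645 symbols, and 33331 kept their own identifier. Pcx is listed there as Pc. The probe of highest mean signal stood for a gene, and 8 of the 9 members had several probes. Probes of related carriers can share signal. The groups were compared with limma 3.58.1 in R 4.3.3 (lmFit, eBayes, Benjamini-Hochberg over 31179 genes, threshold 0.05). Its calling and interval code was tested on simulated data. Intervals cover the spread between arrays, and precision is limited by having 3 arrays per group.

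The members and lists were chosen with earlier results of these data known. The genes named were the 9 members, 9 context genes, and the 3 of highest mean signal of each list with any past the threshold (none was), and for each cotransporter the 3 genes of closest profile. Results of 2 context genes are not reported here. Slc5a8 is in the carrier list and among the late tubule markers. Slc5a9, Hkdc1 and Hnf4g were not matched, and Slc2a3 and Slc2a10 did not pass the filter on dim probes. Replicate numbers are shared between groups. Deviations from group means of same-numbered arrays correlated at -0.108, 0.0075 and 0.00095, so the numbers were not taken to pair animals. Alternatives were quantile and median scaling, normexp on the median spot signal (offset 50), the deposited table, other filters and probe rules, flagged spots kept, a trended robust prior, replicate and slide blocks, and leaving out each array.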

Additional observations from a re-analysis of the deposited data

How the results depend on the processing

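Under 18 alternatives, 6 of them leaving out 1 array each, no member passed the threshold. Over all genes limma called 2 with normexp background correction and 2 without benzyl acetate replicate 1 (0 to 2 over the arrays left out), none of them a member. Of 35 tested values, 24 kept their sign throughout, among them Slc5a1, Slc5a2, Slc2a1 and G6pc1. The 35 include 4 genes chosen by an unadjusted p under 0.05 in limma, whose steady sign largely follows from that choice. Not every alternative could turn a sign. Other filters on dim probes, flagged spots kept and the trended robust prior left the members' differences as they were. The slide block gave the same differences as leaving out vehicle replicate 1. With the slide as a block, which takes vehicle replicate 1 out of the comparison, the log2 difference turned for Pcx (0.080), Pdk2 (-0.023), Akr1a1 (0.0071), Cebpb (-0.056) and the within-array Slc2a2 minus Slc2a1 gap (-0.074). From the probe of lowest signal it turned for Slc2a2 (0.028), Fbp1 (-0.044) and Cebpb (-0.054), from the mean of probes for Cebpb (-0.0013), with quantile normalization for Fbp1 (-0.024), and for Hnf4a with median scaling (-0.013) and normexp (-0.069). Leaving out 1 array gave ranges on both sides of 0 for Pcx (-0.10 to 0.080), Pck2 (-0.0048 to 0.13), Fbp1 (-0.00044 to 0.094), Khk (-0.031 to 0.013), Slc2a2 (-0.084 to 0.074), Slc2a2 minus Slc2a1 (-0.074 to 0.21), Hnf4a (-0.11 to 0.12), Pdk2 (-0.023 to 0.11), Akr1a1 (-0.096 to 0.033), Cebpb (-0.10 to 0.31) and Sgk1 (-0.11 to 0.51). The medians of the 6 pathway lists ran from -0.13 to 0.18 over all alternatives, and each but that of the one-way glycolytic steps took both signs. The cause of these turns was not tested beyond the array, probe or scaling that was changed. The replicate block leaves the differences as they are by construction in this balanced design, and no member was called with or without it; its adjusted p-values were 0.814 (Slc5a2) to 0.998 (Pcx). The within-array gaps under that block were 0.28 log2 (Slc5a2 minus Slc5a1), 0.056 (Slc2a2 minus Slc2a1) and 0.17 (G6pc1 minus Khk). The number of arrays limits what could be seen: the median 95% interval of a member reached 0.28 log2 to either side.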

Other observations

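The 4 pathway genes with an unadjusted p under 0.05 in limma were named after their values were seen, and none passed over all genes. Such a p was found for 5.26% of the 76 pathway genes tested, against 6.74% of all genes. The groups did not overlap for 13.2% of the 76, against 12.8% of all genes. Groups without overlap largely follow from choosing genes by that p, and 95% intervals that leave out 0 follow from it by definition. Neither is further evidence of a difference for these 4 genes. Foxo3, a forkhead factor restrained by insulin signalling, read -3.23, -3.21 and -3.11 log2 on vehicle replicates 1, 2 and 3 and -3.01, -2.93 and -2.96 on benzyl acetate replicates 1, 2 and 3. Each treated array lay above each vehicle array, and the difference was 0.22 log2 (0.053 to 0.39, adjusted p = 0.7 in limma), or 0.38 from its probe of lowest signal. Foxo1, a related factor that acts on G6pc1 and Pck1, read 0.27, 0.23 and 0.20 log2 with vehicle and 0.43, 0.44 and 0.37 with benzyl acetate. Its groups did not overlap either, at a difference of 0.18 log2 (0.023 to 0.33, adjusted p = 0.709 in limma). Hk1, a hexokinase that phosphorylates glucose, was lower on each treated array than on each vehicle array, by 0.17 log2 on average (-0.35 to -0.0012 for the difference, adjusted p = 0.736 in limma). Its probe of lowest signal gave -0.26. Slc5a4, a low-affinity relative of the cotransporters, was dim, at -4.30 to -4.20 log2 with vehicle and -4.10 to -3.55 with benzyl acetate, with no overlap and a difference of 0.39 (0.028 to 0.75, adjusted p = 0.726 in limma). That difference was 0.23 without benzyl acetate replicate 3 and 0.22 with normexp background correction.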
